A study of Mus musculus with 6 samples.

Results

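Plasminogen activators, their receptor and a group of protease inhibitors and related serpins were followed through 8 genes: Plau, Plat, Plaur, Serpinh1, Serpinf1, Serpine2, Spint1 and Spint2. They were taken by gene symbol, and all 8 were found among the 46603 gene identifiers counted and were among the 15009 genes with enough counts to test. RNA sequencing was done on mouse embryonic fibroblasts of the BALB/c strain, from embryos of 10.5 days, with 3 libraries of wild-type cells (WT) and 3 of beta-actin knockout cells (KO). Both genotypes had been kept for 6 days in adipocyte differentiation medium, that is growth medium with added insulin, dexamethasone, ascorbic acid and the phosphodiesterase inhibitor IBMX. The labels do not say whether the 3 libraries of a genotype came from separate cultures or whether each genotype is 1 cell line, so the tests measure the spread between these libraries, which may be technical. No library from before the medium was added was analysed, so differences that arose in the medium and earlier ones cannot be told apart.

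Plasmin is a serine protease that degrades fibrin and matrix proteins and is cut from the circulating precursor plasminogen. The cut is made by urokinase, encoded by Plau and held at the cell surface by the receptor Plaur, or by tissue plasminogen activator, encoded by Plat. Serpins are a protein family most of whose members trap serine proteases. Serpine2 encodes protease nexin 1, an inhibitor of thrombin and of both activators. Serpinf1 encodes PEDF, a secreted serpin that does not inhibit proteases, and Serpinh1 encodes HSP47, a collagen chaperone of the endoplasmic reticulum. Spint1 and Spint2 encode HAI-1 and HAI-2, membrane-bound inhibitors of the Kunitz type that block matriptase, hepsin and the activator of hepatocyte growth factor. Fibroblasts are known for making collagen, plasminogen activators and their inhibitors, while Spint1 and Spint2 are best known from epithelia.

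In KO cells both Kunitz-type inhibitors fell, Spint2 from 28.6 ± 11.0 to 0.134 ± 0.0656 CPM and Spint1 from 14.7 ± 3.84 to 0.440 ± 0.279 CPM (SD, n = 3 each). Serpinh1 rose from 463 ± 36.2 to 803 ± 21.7 CPM and Plat from 76.3 ± 5.78 to 102 ± 11.5 CPM, and the other 4 genes did not pass the test. Values are counts per 1000000 (CPM) in libraries scaled by TMM, a method that sets the bulk of genes level between libraries, and a gene counted as changed at an edgeR adjusted p below 0.05 over all tested genes. Of the 8 genes, 2 rose and 2 fell. Of all tested genes, 28.3% changed, 13.8% being higher and 14.5% lower in KO. The WT and KO values did not overlap in 5 of the 8 genes, against 49.6% of all tested genes. The median log2 fold change (KO over WT) was 0.31 over the 8 genes and 0.01 over all tested genes. With libraries scaled by their totals alone, the median of all tested genes moved to -0.19, and the direction of each of the 8 genes stayed as given here.

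**Figure D1:**
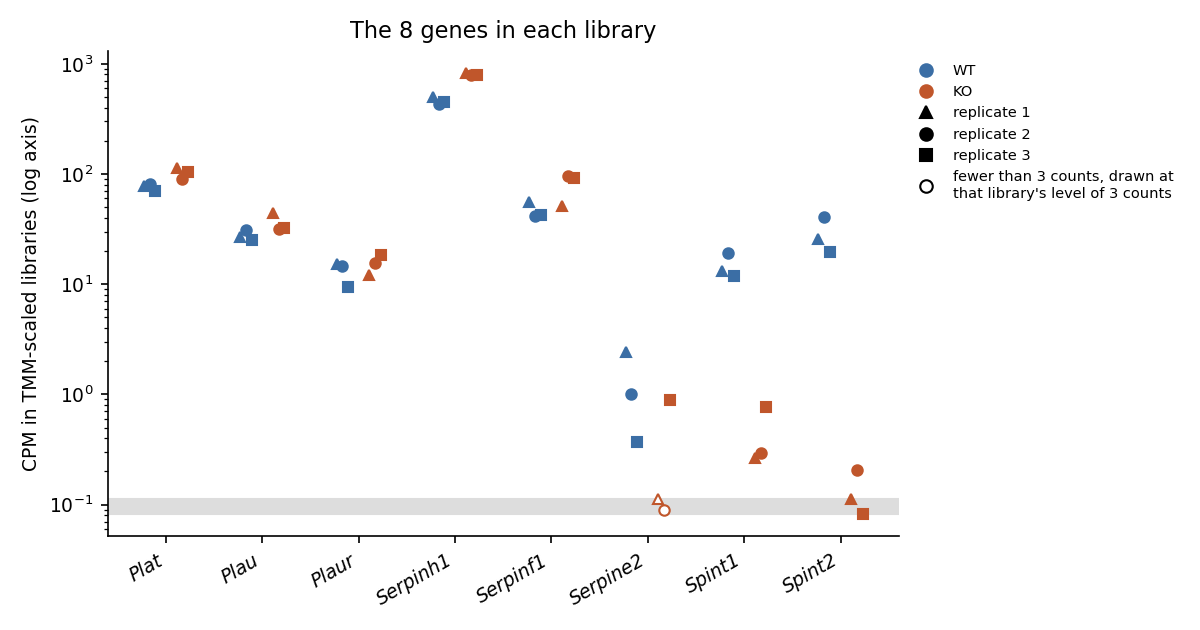
CPM (log axis) of the 8 genes in the 3 WT (blue) and 3 KO (orange) libraries, with a marker shape for each replicate and the range of 3 counts in grey. KO values of Spint1 and Spint2 lie below 0.8 CPM against at least 11.8 CPM in WT, while the other genes differ by much less or overlap.

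Libraries held 26955708 to 38619711 counts, so 3 counts, the limit that a count of 0 allows, came to 0.0816 to 0.113 CPM, and such limits cover counting error only. Mitochondrial transcripts took 3.57% to 5.41% of the counts. Actb, the targeted gene, had 60501, 60582 and 53894 counts in WT against 276, 1988 and 1850 in KO. Of the fibroblast markers, 6 of 9 rose, and their summed level was 1220 to 1391 CPM in WT and 2760 to 2980 CPM in KO. Most of this sum came from Col1a1 and Vim. Thy1, a surface marker of many fibroblasts, had 0, 1 and 0 counts in WT against 20, 13 and 17 in KO. Of the 8 adipocyte markers, 4 were tested and 2 rose and 1 fell, with a summed level of 27.3 to 36.2 CPM in WT and 177 to 285 CPM in KO. Lpl, with means of 2.74 CPM in WT and 142 CPM in KO, was the largest part of the KO sums. Pparg also rose, and Cebpa fell from a mean of 5.59 to 0.29 CPM. Fabp4 was not called (adjusted p = 0.0686), with 109, 8.6 and 16.2 CPM in the KO libraries. Such marker sums are of CPM not divided by gene length. Adipoq, which encodes adiponectin, had 1 count in the 6 libraries together and Lep, which encodes leptin, had none. In such bulk samples fewer cells of a type and less RNA per cell cannot be told apart.

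Spint1 and Spint2 showed the largest differences of the 8 genes. Spint2 (ENSMUSG00000074227, GRCm38 chromosome 7, 29256323 to 29281912, minus strand) had 811, 1300 and 581 counts in the WT libraries against 3, 7 and 3 in the KO libraries. WT replicate 2 was the highest, and the lowest WT library stood far above every KO library. The log2 fold change was -7.70 (SE 0.41, adjusted p = 7.57e-05). On the summed counts scaled for depth, WT held 216 times the KO level, with a 95% counting interval of 126 to 406. Its log2 fold change ranked 58 from the lowest of all 15009 tested genes, and that of Spint1 ranked 189.

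Spint1 (ENSMUSG00000027315, chromosome 2, 119237362 to 119249527, plus strand) had 422, 606 and 349 counts in WT against 7, 10 and 28 in KO. The order of the WT libraries was that of Spint2, and the highest KO library, replicate 3, lay far below the lowest WT library. In log2 terms the difference was -5.01 (SE 0.47, adjusted p = 0.000308). The depth-scaled WT sum was 31.9 times that of KO, with a 95% counting interval of 23.7 to 43.9. Both genes were called lower under all 15 other settings, with log2 fold changes from -8.17 to -7.36 for Spint2 and from -5.68 to -4.77 for Spint1.

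The promoters of Spint1 and Spint2 are shown because the 2 genes fell together, and that of Serpinh1 because it rose. RefSeq promoter sequences (GRCm38.p6) were matched for 6 of the 8 genes, and Plau and Plat were not among them. Each sequence runs 5′ to 3′ on the strand of the gene, from 250 bases before the RefSeq start to 10 bases after it, and covers chr2:119237110-119237369 (plus strand) for Spint1, chr7:29281968-29282227 (minus strand) for Spint2 and chr7:99353230-99353489 (minus strand) for Serpinh1. Capitals mark TGANTCA in Spint1, CAGGTG, an E-box, in Spint2, and GGGCGG, a GC box, in Serpinh1. N stands for any base, so TGANTCA takes in the AP-1 site TGACTCA but is wider than it.
Spint1: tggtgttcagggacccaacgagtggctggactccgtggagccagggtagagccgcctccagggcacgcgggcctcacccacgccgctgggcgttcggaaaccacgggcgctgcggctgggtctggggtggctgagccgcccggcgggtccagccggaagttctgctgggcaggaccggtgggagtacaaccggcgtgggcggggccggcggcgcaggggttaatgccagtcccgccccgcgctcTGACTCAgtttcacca
Spint2: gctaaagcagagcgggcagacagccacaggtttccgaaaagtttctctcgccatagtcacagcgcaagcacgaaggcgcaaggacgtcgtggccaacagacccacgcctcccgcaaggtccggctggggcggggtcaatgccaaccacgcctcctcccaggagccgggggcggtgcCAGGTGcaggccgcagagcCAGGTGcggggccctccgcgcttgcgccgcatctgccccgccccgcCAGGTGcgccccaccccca
Serpinh1: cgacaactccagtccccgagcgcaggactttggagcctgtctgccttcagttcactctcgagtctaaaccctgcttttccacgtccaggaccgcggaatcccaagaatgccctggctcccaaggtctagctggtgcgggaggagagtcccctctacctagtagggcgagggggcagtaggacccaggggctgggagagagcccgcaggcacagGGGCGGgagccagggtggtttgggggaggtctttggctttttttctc

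The motifs were chosen after the sequences had been seen, and a match is only a match of letters. Searched on both strands, CAGGTG occurred 3 times in the Spint2 window, starting at positions -74, -55 and -9 from the RefSeq start. At least 1 copy occurred in 17.8% of 32851 mouse promoter windows of the same length and at least 3 copies in 0.268%. The Spint1 window held no CAGGTG and 1 TGANTCA, at position -6, a motif found in 7.03% of windows. Among the other 4 windows, that of Plaur also held 1 TGANTCA, at -69, and none held CAGGTG. The GC box GGGCGG, present in 33.4% of windows, had 3 copies each in Spint1, Spint2 and Plaur, 6 in Serpine2, 1 in Serpinh1 and none in Serpinf1, and some of the Serpine2 and Plaur copies overlap or adjoin in 1 G-rich stretch. GAANNTTC, present in 6.94% of windows, was searched as well and occurred in none of the 6 sequences. The GC content was 71.5% in Spint1, 70.0% in Spint2 and 61.9% in Serpinh1, against a median of 52.3% over all windows.

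The nearest tested genes on either side of Spint1 and Spint2 moved in opposite ways. Beside Spint1, Zfyve19 (log2 fold change -1.20, adjusted p = 0.0012) and Rhov (-2.10, adjusted p = 0.00475) were both lower in KO. Beside Spint2, 2200002D01Rik (1.97, adjusted p = 0.00332) and Ppp1r14a (1.89, adjusted p = 0.00147) were both higher. Of the nearest tested genes of the other 6, on both sides of each, Smg9 beside Plaur (-0.67, adjusted p = 0.0148) and Cul3 beside Serpine2 (0.49, adjusted p = 0.0274) passed the test and the other 10 did not.

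Of the proteases and growth factor genes linked to HAI-1 and HAI-2, 8 of 14 listed had enough counts to test, and 2 rose and 4 fell, with a median log2 fold change of -1.34. St14, which encodes matriptase, the main target of HAI-1, had 18, 39 and 15 counts in WT against 1, 0 and 0 in KO. Its WT libraries ranked as those of Spint1 and Spint2 did, with replicate 2 highest. F2rl1 and Hpn, given below, ranked otherwise, with replicate 1 and replicate 3 highest. The log2 fold change was -5.75 (SE 0.43, adjusted p = 0.00283), and the depth-scaled sum was 75.0 times higher in WT, with a 95% counting interval of 13.04 to 3002. The fall of the F2rl1 transcript, for the receptor PAR2 that such proteases activate, was from 13, 12 and 10 counts to 1, 0 and 1 (-3.94, SE 0.21, adjusted p = 0.00354). Its depth-scaled sum was 18.2 times higher in WT, with a wide 95% counting interval of 4.68 to 156. Hgfac and Mst1 were the other 2 lower genes, and the mean level of each of the 4 was under 1 CPM in both genotypes. Hpn, which encodes hepsin, had 8, 10 and 19 counts in WT against 3, 4 and 2 in KO and was not tested. Only 2 genes fell when WT replicate 2, KO replicate 2 or KO replicate 3 was left out, and a filter of CPM 1 or more in 3 libraries removed all 4 of the lower genes from the test.

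Hgf, the growth factor precursor that the proteases blocked by HAI-1 and HAI-2 cut, went the other way. It had 16, 8 and 27 counts in WT against 285, 725 and 988 in KO, and every KO library lay far above the highest WT library. The level was 0.555 ± 0.333 CPM in WT and 19.7 ± 8.23 CPM in KO (SD, n = 3 each), a log2 fold change of 5.15 (SE 0.62, adjusted p = 0.000577), and 6.7% of its exon bases also lie in the unnamed transcript Gm43489. Met, the receptor of this factor, rose from 45.5 ± 8.90 to 106 ± 33.4 CPM (1.22, SE 0.30, adjusted p = 0.00871).

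Markers of epithelial cells, in which both inhibitors are usually found, did not move as 1 group. Of 13 listed, 4 had enough counts to test, of which 3 rose and 1 fell. The summed level of the whole list was 6.07 to 11.6 CPM in WT and 31.6 to 53.8 CPM in KO. Most of this sum was Krt19, with means of 5.5 CPM in WT and 34.7 CPM in KO. Epcam, a defining epithelial surface marker, had 34, 48 and 45 counts in WT against 0 in all 3 KO libraries, at least 14.7-fold lower in KO at a floor of 3 counts per library (adjusted p = 0.000994). Cdh1, which encodes E-cadherin, had 11, 7 and 11 counts in WT against 0, 4 and 2 in KO and was not tested. Krt8, Krt14, Cldn3, Cldn7 and Esrp1, not tested either, had lower CPM in every KO library than in any WT library. Their counts were low, with WT sums of 19, 11, 18, 4 and 13 against KO sums of 8, 2, 0, 1 and 3. Cldn7 had 1, 1 and 2 counts in WT against 0, 1 and 0 in KO, so its groups were parted only by library scaling. Krt18, Krt19 and Grhl2 rose instead, Krt19 from 102, 258 and 154 counts to 927, 831 and 1642. The untested Krt5, Cldn4 and Ocln overlapped between genotypes. The part of these markers in the fall of Spint1 and Spint2 was not tested.

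**Figure D2:**
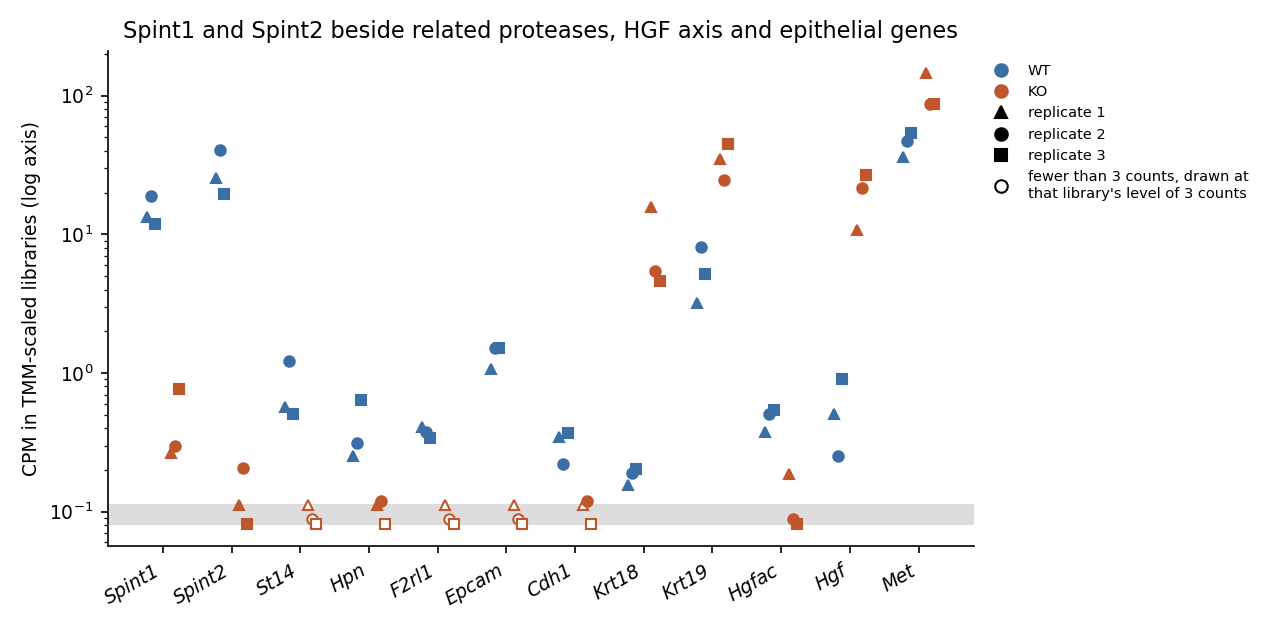
CPM (log axis) in each library of Spint1, Spint2, their related proteases, the Hgf axis and epithelial markers; open markers stand for fewer than 3 counts and the grey band is the level of 3 counts across libraries. Spint1, Spint2, St14, F2rl1, Epcam and Cdh1 are lower in every KO library than in any WT library, while Krt18, Krt19, Hgf and Met are higher.

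Serpinh1 (ENSMUSG00000070436, chromosome 7, 99345376 to 99353239, minus strand) was the most abundant of the 8 and rose in KO. Its level was 503, 433 and 452 CPM in WT and 828, 794 and 787 CPM in KO. The 3 libraries of each genotype lay close together, and the groups were far apart. This is a log2 fold change of 0.80 (SE 0.07, adjusted p = 0.00285). The call held under all 15 other settings, with log2 fold changes from 0.59, with library totals, to 0.85. Neither of its tested neighbours, Map6 and Gdpd5, passed the test.

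The collagens that HSP47 folds and the enzymes and helpers that act on them were mostly higher in KO as well. Of 26 listed genes, all tested, 17 rose and none fell, with a median log2 fold change of 0.78. With 1 library left out, the number that rose ran from 14, without WT replicate 2, to 21, without KO replicate 1. Col3a1, the chain of type III collagen, had 1220, 538 and 1122 counts in WT against 31751, 27342 and 38941 in KO (5.04, SE 0.42, adjusted p = 0.000152). The basement membrane chain Col4a2 went from 247 ± 13.2 to 666 ± 19.6 CPM (1.43, SE 0.05, adjusted p = 0.000212). Col1a2, which pairs with Col1a1 in type I collagen, had 13, 6 and 9 counts in WT against 125, 269 and 196 in KO (4.30, SE 0.35, adjusted p = 0.00035), while Col1a1 was at 560 ± 118 and 1545 ± 59.8 CPM. Col1a1 and Col1a2 also stand among the fibroblast markers given above, and the part of those markers in the rise of Serpinh1 was not tested.

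Over the 6 libraries, the genes whose log2 CPM ran most like that of Serpinh1 were Gria3, Vegfc and Rab2a (Pearson r = 0.9988, 0.9982 and 0.9976 over 6 libraries). Those most like Spint2 were Prkcz, Exoc3 and Uqcc1 (r = 0.9985, 0.9985 and 0.9982). The 6 points share the split into 2 genotypes, and 47 and 94 of the 10368 genes compared passed r = 0.99 with Serpinh1 and Spint2, so these are descriptions only.

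Of the 2 plasminogen activators, Plat rose slightly and Plau did not pass the test. Plat (ENSMUSG00000031538, chromosome 8, 22757727 to 22782844, plus strand) was at 78.0, 81.1 and 69.9 CPM in WT and 113, 90.0 and 104 CPM in KO. All 3 KO libraries were above all 3 WT libraries. The rise was 0.42 on the log2 scale (SE 0.11, adjusted p = 0.0396). This call held in 7 of 15 other settings. It was lost without WT replicate 1, 2 or 3 (adjusted p = 0.107, 0.102 and 0.132) and without KO replicate 3 (0.104). With library totals the log2 fold change was 0.21 (adjusted p = 0.172).

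Plau (ENSMUSG00000021822, chromosome 14, 20836660 to 20843385, plus strand) was at 27.0, 31.1 and 25.2 CPM in WT and 44.3, 31.5 and 32.2 CPM in KO. The groups did not overlap, but the highest WT and the lowest KO library nearly met. The means were 27.8 ± 3.03 and 36.0 ± 7.21 CPM (SD, n = 3 each), with a log2 fold change of 0.38 (SE 0.18, adjusted p = 0.143) that passed in none of the 15 other settings.

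Plaur (ENSMUSG00000046223, chromosome 7, 24462484 to 24475968, plus strand) was at 15.1, 14.5 and 9.46 CPM in WT and 12.2, 15.7 and 18.2 CPM in KO. The groups overlapped, with KO replicate 1 below 2 of the WT libraries. The log2 fold change was 0.24 (SE 0.27, adjusted p = 0.475), and no setting called it. Among integrins that partner the urokinase receptor and its relatives of the Ly6 family, 12 of 14 listed genes were tested, and 5 rose and 2 fell, with a median log2 fold change of 0.39. Itga5, the alpha chain of the fibronectin receptor, went from 98.4 ± 3.99 to 281 ± 28.4 CPM (1.52, SE 0.09, adjusted p = 0.000209). Ly6c1 (4.24, SE 0.51, adjusted p = 0.000789) was higher and Ly6e (-1.66, SE 0.23, adjusted p = 0.00104) lower. Of 10 markers of macrophages, a cell type that also makes this receptor, 4 were tested and 1 fell. The gene that fell was Fcer1g, with 55 counts in WT together against 4 in KO. The summed levels were 19.6 to 37.9 CPM in WT and 21.7 to 31.1 CPM in KO. Most of this came from Cd68 and Cd14, which overlapped between genotypes, while Tyrobp had no count. Of 7 endothelial markers 5 were tested and 1 fell, with summed levels of 3.36 to 4.69 CPM in WT and 2.15 to 3.68 CPM in KO. The part of these markers in the Plaur values was not tested.

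Levels can be set side by side only per length, here as CPM per kilobase of exon. In WT, Serpinh1 stood first at 189 ± 14.8, followed by Serpinf1 at 19.8 ± 3.46, Plat at 12.2 ± 0.927 and Plau at 11.7 ± 1.28 CPM per kilobase. Plat and Plau overlapped, as did the next 3 in order, Spint2 at 6.29 ± 2.41, Spint1 at 5.31 ± 1.39 and Plaur at 4.97 ± 1.18. Serpine2 was last at 0.153 ± 0.127. In KO the first 4 kept this order, Plaur came next at 5.88 ± 1.17, and Spint1, Serpine2 and Spint2 followed at 0.159 ± 0.101, 0.0388 ± 0.0602 and 0.0294 ± 0.0144, each overlapping the next. With the length of the longest coding transcript instead, the WT means put Plat before Serpinf1, Spint2 before Plau and Plaur before Spint1.

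The per-length ratio of Plat to Plau was 0.989 to 1.10 in the WT libraries and 0.966 to 1.22 in the KO libraries, with overlap. The ratio of Spint2 to Spint1 was 1.01 to 1.30 in WT and 0.0651 to 0.425 in KO, without overlap. The size of such a ratio depends on the length used. With the longest coding transcript, an alternative chosen after the data were seen, Plat stood at 2.42 to 2.68 times Plau in WT and 2.36 to 2.99 times in KO, and Spint2 at 2.79 to 3.601 times Spint1 in WT and 0.180 to 1.18 times in KO.

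Serpinf1 (ENSMUSG00000000753, chromosome 11, 75409769 to 75422701, minus strand) did not pass the test and differed between KO libraries. It was at 56.2, 41.9 and 42.1 CPM in WT and 50.9, 95.0 and 92.1 CPM in KO. KO replicate 1 lay inside the WT range and the other two KO libraries above it. The means were 46.7 ± 8.16 and 79.4 ± 24.7 CPM (SD, n = 3 each), with a log2 fold change of 0.76 (SE 0.32, adjusted p = 0.0551). It was called in 3 of 15 other settings. Without KO replicate 1 the log2 fold change was 1.00 (adjusted p = 0.000824). On all 6 libraries, DESeq2 (adjusted p = 0.0181) and edgeR without the filter on low counts (adjusted p = 0.0232) called it too. Of the receptors proposed for PEDF and other genes that act on vessel growth, 7 of 8 were tested, and 2 rose and 2 fell, with a median log2 fold change of 0.28. Plxdc1 (-3.21, SE 0.21, adjusted p = 0.00054) and Thbs2 (-3.48, SE 0.69, adjusted p = 0.00308) were lower, while Thbs1 (1.64, SE 0.56, adjusted p = 0.0239) was higher. The number that rose was 0 without WT replicate 1 or 2, where Thbs1 was at adjusted p = 0.0974 and 0.0955, and it was 1 with library totals, without WT replicate 3 and without KO replicate 3.

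Serpine2 (ENSMUSG00000026249, chromosome 1, 79794197 to 79861180, minus strand) had low counts and varied within both genotypes. It had 77, 32 and 11 counts in WT against 1, 1 and 33 in KO. KO replicate 3 lay above WT replicate 3, and KO replicates 1 and 2 were below 3 counts. The level was 1.27 ± 1.05 CPM in WT and 0.322 ± 0.499 CPM in KO (SD, n = 3 each), with a log2 fold change of -1.89 (SE 1.32, adjusted p = 0.226). Without KO replicate 3 it was -5.09 (adjusted p = 0.0207), so 1 library decides the call. Thrombin, the protease that nexin 1 blocks most readily, belongs to a list of 14 coagulation genes and protease receptors, of which 7 were tested, 4 rose and 1 fell, with a median log2 fold change of 0.85. Tfpi, the inhibitor of tissue factor, fell from 65.6 ± 2.69 to 7.72 ± 3.09 CPM (-3.09, SE 0.31, adjusted p = 0.000313). F3, which encodes tissue factor, rose from 30.7 ± 3.09 to 251 ± 172 CPM (3.03, SE 0.55, adjusted p = 0.00276), and F2r, the thrombin receptor, rose as well (0.85, SE 0.22, adjusted p = 0.0144). The number that rose was 1, 2 and 2 without WT replicate 1, 2 and 3, where F2r was at adjusted p = 0.0665, 0.0524 and 0.0536, and the number that fell was 2 without KO replicate 3.

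**Figure D3:**
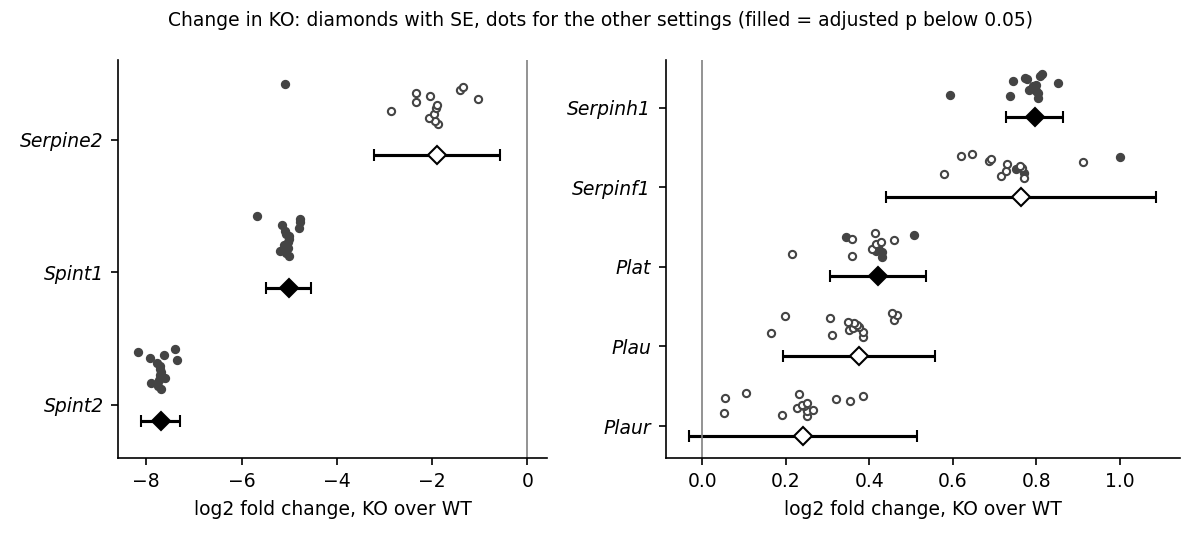
Log2 fold change, KO over WT, of the 8 genes: diamonds with SE bars are the reported values and dots are the up to 15 other settings, filled where the adjusted p was below 0.05. Spint1, Spint2 and Serpinh1 are filled throughout, Plat in 7 and Serpinf1 in 3 of 15 other settings, and Serpine2 only without KO replicate 3.

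Plg, the precursor of plasmin, had 1 count in WT and 1 in KO and was not tested. Serpinf2, which encodes the plasmin inhibitor alpha-2-antiplasmin, had 35 counts in WT against 28 in KO, a log2 fold change of -0.35 (adjusted p = 0.622). Of 17 other genes of the plasminogen activator system, 10 were tested, and 4 rose and 1 fell, with a median log2 fold change of 0.65. S100a10, a plasminogen-binding partner of annexin A2, went from 243 ± 52.0 to 538 ± 97.4 CPM (1.15, SE 0.23, adjusted p = 0.00521), and Eno1, an enolase that also binds plasminogen, rose by 0.94 on the log2 scale (SE 0.18, adjusted p = 0.00704). Thbd, which encodes thrombomodulin, was higher (1.46, SE 0.45, adjusted p = 0.0199) but was lost without WT replicate 1 or 2 (0.0852 and 0.0823), and the number that rose was then 2. Plgrkt, a plasminogen receptor, was lower (-0.41, SE 0.12, adjusted p = 0.0499), and this call was lost without WT replicate 1, 2 or 3 or KO replicate 3 (0.155, 0.118, 0.102 and 0.16). With all 6 libraries it was also lost with RLE scaling (0.0534) and without the filter on low counts (0.0683), where 7 genes of the list rose.

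Of the substrates of plasmin and the matrix proteases and inhibitors that act beside it, all 15 listed were tested, and 8 rose and 1 fell, with a median log2 fold change of 1.01. Mmp3, which encodes the protease stromelysin, had 46, 9 and 16 counts in WT against 2218, 3188 and 1112 in KO (6.51, SE 0.81, adjusted p = 0.000581). Ltbp1, which tethers latent TGF-beta in the matrix, was higher (2.08, SE 0.18, adjusted p = 0.000237) and the related Ltbp2 lower (-4.68, SE 0.75, adjusted p = 0.000801). The number that rose was 5 without WT replicate 2, and the number that fell was 2 without KO replicate 1. Of 16 inducers and regulators of the activator genes, such as the AP-1 subunits, 14 were tested. Among them 2 rose and none fell, with a median log2 fold change of 0.24. The 2 that rose were Tgfb2 (0.85, SE 0.19, adjusted p = 0.0186) and Il6 (1.39, SE 0.47, adjusted p = 0.0442). Neither passed without WT replicate 1 or 2, when Tgfb2 was at 0.0772 and 0.0849 and Il6 at 0.107 and 0.153. Tgfb2 was also lost without KO replicate 2 (0.0537), and Il6 without WT replicate 3 or KO replicate 3 (0.125 and 0.114, the latter at a log2 fold change of 0.78), and 1 gene fell without KO replicate 1. With all 6 libraries Il6 was lost with upper-quartile scaling (0.0526), library totals (0.0705) and limma-voom (0.0669), and 4 genes of the list rose with DESeq2.

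Among the other serpin genes, 65 in number, 16 had no count in any library and 19 were tested, of which 5 rose and 4 fell, with a median log2 fold change of 0.36. Serpinb6b had 70, 57 and 55 counts in WT against 676, 683 and 883 in KO (3.57, SE 0.13, adjusted p = 5.05e-05). Serpinb7 went from 0, 0 and 3 counts to 20, 31 and 17 (4.29, SE 0.53, adjusted p = 0.00812), a ratio of 21.8 with a 95% counting interval of 7.14 to 108. Serpinb1b had 148, 123 and 105 counts in WT against 35, 48 and 66 in KO (-1.41, SE 0.17, adjusted p = 0.00625), and Serpinb9, a granzyme B inhibitor, was lower at 26.5 ± 0.559 against 11.7 ± 3.55 CPM (-1.17, SE 0.28, adjusted p = 0.00889). The mouse Serpinb and Serpina3 genes have near-identical copies, so the assignment of reads among them is uncertain. The number that rose was 2 without WT replicate 1 or 2 and 3 without WT replicate 3 or KO replicate 3, and the number that fell was 2 without KO replicate 2. Without the filter on low counts 9 rose.

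Serpinh1 alone made up 61.2% to 63.7% of the summed per-length level of all serpin genes in WT and 64.0%, 72.4% and 62.7% in the KO libraries, in replicate order. Serpinf1 made up 5.91% to 7.16% in WT and 4.08%, 8.97% and 7.60% in KO. The share of Serpina3g was 10.2%, 7.01% and 11.6% in WT and 2.32%, 2.90% and 4.75% in KO.

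**Figure D4:**
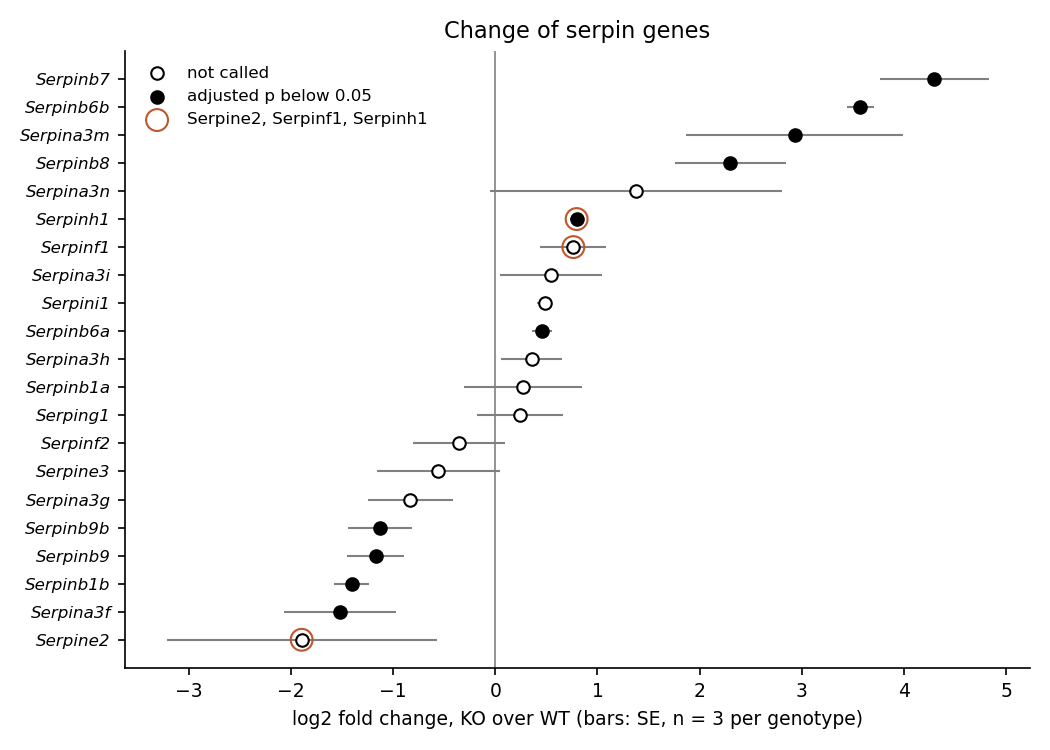
Each point is the log2 fold change, KO over WT, with its SE (n = 3 per genotype) of the serpin genes shown, all with enough counts to test, filled where the adjusted p was below 0.05, with Serpine2, Serpinf1 and Serpinh1 ringed. Serpinh1 is among the smaller of the called rises, with a narrow SE, and Serpine2 has the lowest value with one of the widest.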

How the data were processed

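The authors deposited raw read counts per Ensembl mouse gene, 1 table a library. The submitters' processing notes list GRCm38.p4, TopHat2 2.1.0, HTSeq and DESeq2. Annotation release, strand setting and read filters were not given in the sources used here, so genes that overlap on opposite strands may share reads. Identifiers were matched to GENCODE M21 (46091 of 46603). No other gene body overlaps those of the 8 genes.

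KO was compared with WT in R 4.3.3 by the edgeR 4.0.16 quasi-likelihood F test, two-sided, with filterByExpr, TMM scaling and genotype as the only term, and Benjamini-Hochberg adjustment over all tested genes. It called 4255 genes, 2297 of them changed by 1 or more on the log2 scale. Each SE belongs to the difference between mean log2 CPM values, and counting intervals are exact binomial. The log2 CPM values carry a prior count of 2, so an SE at counts near the floor is too narrow. Other settings were scaling by RLE, upper quartile or library totals, the tools DESeq2 1.42.0 and limma-voom (limma 3.58.1), no filter, a filter of CPM 1 or more in 3 libraries, removal of the 10 most abundant genes, a replicate block, and removal of each library. The genes and lists were chosen with earlier results of these data known. Each pathway list is described by its 3 changed genes of smallest p (serpins: 4) plus 1 in the other direction, at a mean count of 20 or more (likeness: 200). Plg and Serpinf2 are given whatever their values, and 1 gene that the rule takes is not reported here. F2rl1, Hgfac, Mst1, Hpn, Col1a1, single marker genes, neighbours and Serpina3g were named after their values were seen.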

Additional observations from a re-analysis of the deposited data

How the results depend on the processing

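No called gene among those followed singly through the alternatives changed direction. The direction of the remaining called genes was not followed. With library totals 1351 genes were higher and 3347 lower in KO, against 2074 and 2181. Leaving out 1 library gave 1003 to 3075 higher and 1295 to 3462 lower genes, the highest counts of both without KO replicate 1. Of the 8 genes, the number that rose was 1 instead of 2 with upper-quartile scaling, library totals or the replicate block, and 1 to 3 with 1 library left out, while the number that fell was 2 to 3. Plat was at adjusted p = 0.0506 with upper-quartile scaling, 0.0709 without the filter and 0.0965 with the replicate number as a block. With that block Plgrkt (0.101), Thbs1 (0.0747), Tgfb2 (0.0656) and Il6 (0.0724) were not called either, and of the genes linked to HAI-1 and HAI-2 only 2 fell. Equally numbered WT and KO libraries deviated from their group means with correlations of -0.101, 0.046 and -0.148 across genes. Only equally numbered libraries were compared, so these values cannot decide whether the numbers pair the libraries. A CPM of at least 1 in 3 libraries removed Serpine2. Counts of 3, 7 and 3 for Spint2 and of 1 in 2 libraries for Serpine2 limit how well their KO levels are known.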

Other observations

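Other markers were measured beside these genes. Of 5 mesothelial markers 3 were tested, and 1 rose and 1 fell, with summed levels of 10.5 to 16.8 CPM in WT and 11.4 to 22.0 CPM in KO. Of 7 trophoblast markers 2 were tested, Gata2 and Gata3, and both rose, with summed levels of 20.9 to 22.6 CPM in WT and 38.7 to 47.8 CPM in KO. Serpina1a had 0 counts in the WT libraries and 55, 0 and 7 in KO, so the groups overlapped and KO replicate 1 held most of the counts. Serpinb2, which encodes the urokinase inhibitor PAI-2, had 0 counts in WT and 4, 3 and 14 in KO, at least 2.24-fold higher at a floor of 3 counts per library, and 12.4% of its exon bases are shared with Serpinb10. Neither was tested by the model.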
